A study of Homo sapiens with 8 samples.

Results

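RNase P and RNase MRP are described here through 10 genes, the RNA genes RPPH1 and RMRP and 8 genes of their protein subunits, out of 25558 gene symbols in the tables. The genes were chosen by symbol, and the FPKM (fragments scaled by transcript length and library size) of their 20 RefSeq transcripts were summed per gene. All 10 had a mean of at least 1 FPKM and stayed among the 13116 genes compared. The cells were of the established line H1, human embryonic stem cells at passages 40 to 60, grown without feeder cells on Matrigel in medium with basic fibroblast growth factor and puromycin. They carried a hairpin RNA switched on by doxycycline, either shEXOSC3, against the RNA exosome subunit EXOSC3, or the non-silencing shNS. The groups were shEXOSC3 with doxycycline, shEXOSC3 without it, shNS with doxycycline and shNS without it, each on day 7 and day 5. The sources used here do not say whether each line was 1 clone or a pool.

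Each of the 8 groups held 1 library, so no difference could be checked against replicates and no p-value was computed from the levels. Each table paired a line's doxycycline library with the untreated library of that day, and tables were made separately. The summed FPKM ran between 675742 and 785419 per library, and the read depth is unknown. Low values were spaced as if the doxycycline library of shEXOSC3 were 0.922 times as deep as the untreated one on day 7 and 1.01 times on day 5, with 1.33 and 1.59 times in shNS. EXOSC3 stood at 12.4 FPKM with doxycycline and 25.2 FPKM without it in shEXOSC3 on day 7, against 11.3 FPKM with and 25.2 FPKM without it on day 5. In shNS this targeted gene stood at 27.4 FPKM with doxycycline and 30.3 FPKM without it on day 7, against 27.8 FPKM with and 27.3 FPKM without it on day 5. All 5 measured stem cell markers (POU5F1, NANOG, SOX2, LIN28A and DNMT3B) were present in every library, and 11 of 12 markers of other lineages had a mean below 1 FPKM. The exception, KRT7, lay between 7.70 and 9.26 FPKM in all libraries.

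The stem cell markers summed to 1135 FPKM with doxycycline and 1483 FPKM without it in shEXOSC3 on day 7, and to 1303 and 1471 FPKM in shNS. On day 5 they summed to 1154 and 1472 FPKM in shEXOSC3, and to 1247 and 1451 FPKM in shNS, lower with doxycycline in every table. DNMT3B had 258 FPKM with doxycycline and 395 FPKM without it in shEXOSC3 on day 7, and 321 and 415 FPKM in shNS. The markers did not all go the same way. With the shNS log2 ratio subtracted, DNMT3B had -0.24 on day 7 and -0.38 on day 5, and SOX2 -0.37 and -0.34. NANOG had 0.13 and 0.20, POU5F1 0.16 and -0.09, and LIN28A -0.26 and 0.18. In shEXOSC3 on day 5 NANOG was the higher with doxycycline, at 19.4 FPKM against 18.8 FPKM. None of the 5 (0) passed 2-fold once the shNS ratio was subtracted. Of 6 fibroblast markers, DCN and LUM were listed at 0 in all libraries, COL3A1 had a mean below 1 FPKM, and THY1, which human embryonic stem cells also express, made up most of the sum. That sum was 215 FPKM with doxycycline and 198 FPKM without it in shEXOSC3 on day 7, and 158 and 171 FPKM in shNS. On day 5 it was 120.4 and 88.7 FPKM in shEXOSC3, and 91.5 and 81.7 FPKM in shNS, higher with doxycycline in both lines. COL1A1, a collagen gene, had 9.11 and 4.52 FPKM in shEXOSC3 on day 5, and 3.87 and 5.34 FPKM in shNS. Its log2 ratio on day 5 was 1.25 after subtracting that of shNS, past 2-fold. Of all genes compared, 2.43% passed 2-fold either way on that day. On day 7 COL1A1 was lower with doxycycline in both lines, with log2 ratios of -0.31 in shEXOSC3 and -0.23 in shNS. After the subtraction its day 7 value was -0.07. The part of these markers in the values of RNase P and RNase MRP genes was not tested.

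RNase P is a ribonucleoprotein that removes the 5′ leader of precursor transfer RNAs, and RPPH1 is its catalytic RNA. RNase MRP, built on the related RNA RMRP, acts in the processing of precursor ribosomal RNA, and the enzymes share most of their protein subunits. Both RNAs are made by RNA polymerase III from promoters that lie upstream of the transcribed sequence. The RNA exosome degrades and trims many noncoding RNAs in the nucleus.

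The RNAs are shown because their levels set them apart from all protein subunits. The sequences are those of GENCODE 29 on GRCh38, RMRP from chr9:35657751-35658018 and RPPH1 from chr14:20343075-20343407, both on the minus strand. They are 268 and 333 bases long, with 63.1% and 64.6% G and C, and RPPH1 is shown from base 1 to base 300. Capitals mark the longest run of letters that both share, 9 bases.
RMRP: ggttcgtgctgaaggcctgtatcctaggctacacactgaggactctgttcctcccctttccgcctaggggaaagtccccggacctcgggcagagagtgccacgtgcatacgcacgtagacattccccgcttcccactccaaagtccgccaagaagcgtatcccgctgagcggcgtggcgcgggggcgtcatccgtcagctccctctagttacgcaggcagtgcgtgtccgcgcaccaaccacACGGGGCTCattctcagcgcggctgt
RPPH1: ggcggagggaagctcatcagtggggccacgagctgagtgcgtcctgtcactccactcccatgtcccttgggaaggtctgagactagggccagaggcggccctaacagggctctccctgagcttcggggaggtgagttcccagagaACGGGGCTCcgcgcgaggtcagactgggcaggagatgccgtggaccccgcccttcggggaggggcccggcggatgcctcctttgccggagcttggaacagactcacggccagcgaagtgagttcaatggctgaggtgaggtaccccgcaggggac

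Leaving out the 55 genes with a failed or too deep estimate, RMRP was the most abundant gene of every day 5 library. RPPH1 stood next to it, and neither RNA reached a 2-fold difference with doxycycline on either day. In the hg19 coordinates of the tables, counted from 1, RMRP (NR_003051) lies at chr9:35657748-35658015 and RPPH1 (NR_002312) at chr14:20811230-20811570. This RPPH1 entry spans 341 bases, against 333 bases for the GENCODE sequence shown above. RMRP stood at 12360 FPKM with doxycycline and 13281 FPKM without it in shEXOSC3 on day 7, and at 11204 and 15033 FPKM in shNS. On day 5 it stood at 87126 FPKM with doxycycline and 107537 FPKM without it in shEXOSC3, and at 113113 and 115224 FPKM in shNS. The doxycycline library was the lower of each pair in all 4 tables. RPPH1 stood at 2320 FPKM with doxycycline and 2511 FPKM without it in shEXOSC3 on day 7, and at 2514 and 2810 FPKM in shNS. On day 5 these were 62970 and 72483 FPKM in shEXOSC3 and 73422 and 73648 FPKM in shNS. Here too the doxycycline library was the lower of each pair, at 99.7% of the untreated level in shNS on day 5 and at 86.9% to 92.4% in the other tables. In bulk samples such as these, fewer cells of a type and less RNA per cell cannot be told apart.

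**Figure D1:**
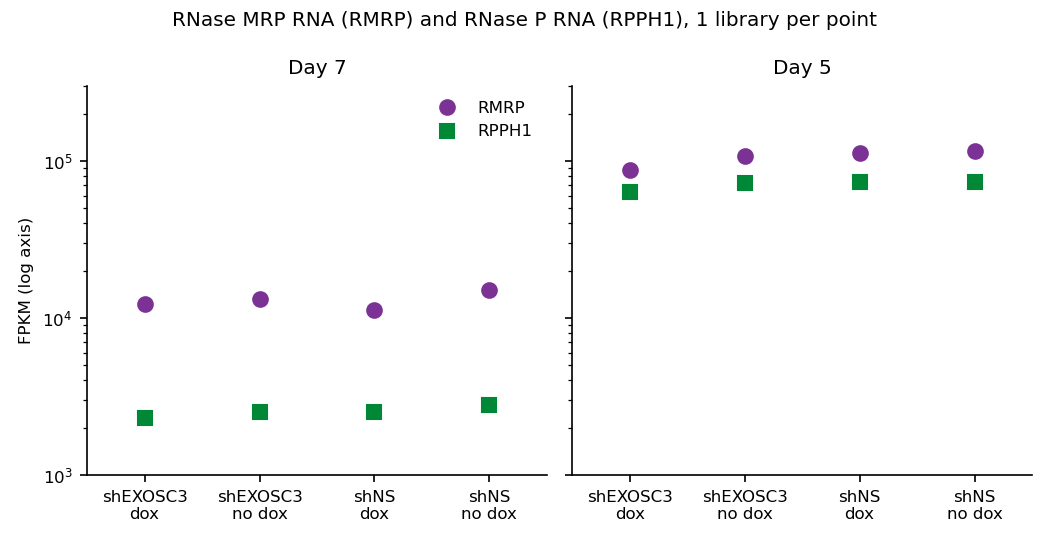
FPKM of RMRP (circles) and RPPH1 (squares) in each of the 8 libraries, on a log axis, with day 7 on the left and day 5 on the right. RMRP lies between 11204 and 15033 FPKM on day 7 and between 87126 and 115224 FPKM on day 5, and RPPH1 lies below it in every library.

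As log2 of FPKM + 1, RMRP had a doxycycline ratio of -0.10 in shEXOSC3 and -0.42 in shNS on day 7, and -0.30 in shEXOSC3 and -0.03 in shNS on day 5. Subtracting the shNS ratio from the shEXOSC3 ratio gives the adjusted difference, which for RMRP was 0.32 on day 7 and -0.28 on day 5. The sign therefore turned between the days. For RPPH1 the doxycycline ratios were -0.11 in shEXOSC3 and -0.16 in shNS on day 7, and -0.20 in shEXOSC3 and -0.00 in shNS on day 5. Its adjusted differences were 0.05 on day 7, which turned to -0.0094 when libraries were rescaled without the 10 most abundant transcripts, and -0.20 on day 5. With that rescaling the day 5 values were -0.05 for RPPH1 and -0.13 for RMRP. The same rescaling put the median of all genes at -0.0566 on day 7 and 0.11 on day 5. A comparison of doxycycline libraries across tables put RMRP at 0.14 and RPPH1 at -0.12 on day 7. On day 5 that comparison put RMRP at -0.38 and RPPH1 at -0.22. Among all genes compared, 3.96% differed 2-fold or more either way by the adjusted difference on day 7 and 2.43% on day 5, against 0 of the 2 RNAs. By the plain doxycycline ratio these shares of all genes were 2.92% in shEXOSC3 and 2.05% in shNS on day 7, and 2.05% in shEXOSC3 and 1.32% in shNS on day 5. The adjusted difference of 59.0% of all genes lay below that of RPPH1 on day 7, and of 24.9% on day 5. For RMRP these shares were 85.6% and 16.1%, so both RNAs lay within the central 90% of all genes on both days. In the authors' deposited table of shNS on day 7, RMRP had the lowest p of these RNAs, 0.0907, with a q of 0.636, from 1 library against 1.

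The RNAs differed far more between the days than with the hairpin. Tables were made separately, so levels on day 7 and day 5 are set side by side with no call. RPPH1 was 27.1-fold lower on day 7 than on day 5 in shEXOSC3 with doxycycline and 28.9-fold lower without it. In shNS it was 29.2-fold lower with doxycycline and 26.2-fold lower without it. RMRP was 7.05-fold lower on day 7 than on day 5 in shEXOSC3 with doxycycline and 8.10-fold lower without it, and 10.1-fold and 7.66-fold lower in shNS. Together the RNAs held 1.98% to 2.61% of all summed FPKM on day 7 and 22.1% to 24.6% on day 5. Among genes without a failed or too deep estimate, RMRP ranked from 3 to 5 on day 7 and at 1 in all day 5 libraries. RPPH1 ranked from 23 to 36 on day 7 and at 2 on day 5.

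The ratio of RMRP to RPPH1 within a library does not depend on the library size used for scaling. It can depend on the fragment length assumed for short transcripts, and the part of that in the ratio was not tested. The ratio was 5.33 with doxycycline and 5.29 without it in shEXOSC3 on day 7, and 4.46 and 5.35 in shNS. On day 5 it was 1.38 with doxycycline and 1.48 without it in shEXOSC3, and 1.54 and 1.56 in shNS. Every day 7 ratio lay above every day 5 ratio, and the untreated library had the higher ratio in 3 of the 4 tables, shEXOSC3 on day 7 being the exception.

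Other genes at short loci, mostly histone genes in the class of 200 to 500 bases, also stood at different levels on the days. Among 56 genes at loci of 200 to 500 bases, 51 were lower on day 7 by the mean over the 4 conditions, with a median log2 difference of -1.97, day 7 minus day 5. RPPH1, at -4.80, was the second lowest of them, after the histone gene H3C13, and RMRP, at -3.03, had 13 lower genes, RPPH1 and 12 histone genes. Of the 56, 47 were histone genes, of which 46 were lower on day 7. Of the 7 that were neither histone genes nor RMRP and RPPH1, 3 were lower, among them the telomerase RNA TERC at -2.52 and the Cajal body RNA SCARNA2 at -2.43, and 4 were higher, up to 2.32 for ANP32D. The 121 genes at loci under 200 bases had a median of 1.47, with 87 higher on day 7. The median of 12939 genes at longer loci was -0.10. The part of locus length in the level of the RNAs on each day was not tested.

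**Figure D2:**
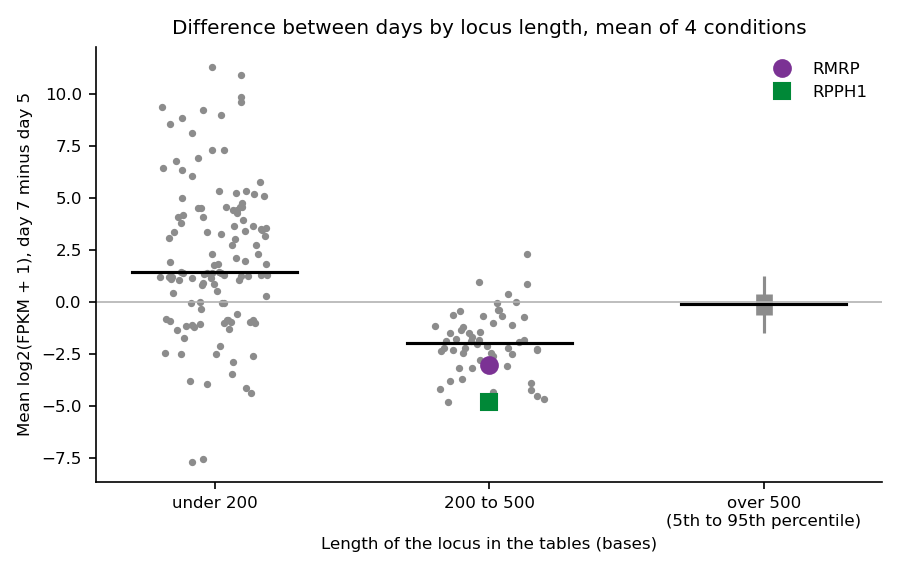
Mean log2(FPKM + 1) on day 7 minus day 5 over the 4 conditions, by the length of the locus; points are genes, black lines medians, and the bar and line at the right the quartiles and the 5th to 95th percentiles of longer loci. RMRP at -3.03 and RPPH1 at -4.80 lie in a class of 56 genes whose median is -1.97.

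The genes whose log2(FPKM + 1) followed RMRP most closely over the 8 libraries were SELENOW, KLHDC3 and ANAPC5, each with Pearson's r of 0.999. For RPPH1 they were DDOST, GNB5 and TBC1D7, with r of 0.9997, 0.999 and 0.999. These are descriptions over libraries that fall into the 2 days, and 403 genes for RMRP and 588 for RPPH1 had r above 0.99. SELENOW stood between 37.7 and 44.1 FPKM on day 7 and between 157 and 183 FPKM on day 5, a smaller difference than that of RMRP. DDOST stood between 57.8 and 60.9 FPKM on day 7 and between 150.3 and 162 FPKM on day 5.

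Each RNA gene shares its upstream region with a protein-coding gene that runs the other way, RMRP with CCDC107 and RPPH1 with PARP2. In RefSeq on GRCh38.p14 the starts lie 273 bases apart for RMRP and CCDC107 and 224 bases apart for RPPH1 and PARP2. The stretch before the start of the neighbour is shown on the minus strand, read towards the RNA gene, since both RNAs stood so far above the neighbours. For RMRP it is chr9:35658042-35658291 and for RPPH1 chr14:20343385-20343634, which ends in the first 27 bases of RPPH1 in RefSeq. The RefSeq starts, base 35658019 for RMRP and base 20343411 for RPPH1, lie upstream of the GENCODE starts of the RNA sequences above. Capitals mark matches on either strand to the octamer ATGCAAAT, to TCACCNTNA, letters found at the start of the proximal sequence element, and to TATAA.
RMRP upstream: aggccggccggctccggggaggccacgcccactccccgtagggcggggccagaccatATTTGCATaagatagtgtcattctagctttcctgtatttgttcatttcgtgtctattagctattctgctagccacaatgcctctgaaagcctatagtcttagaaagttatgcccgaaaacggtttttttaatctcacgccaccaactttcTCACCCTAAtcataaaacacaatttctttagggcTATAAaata
RPPH1 upstream: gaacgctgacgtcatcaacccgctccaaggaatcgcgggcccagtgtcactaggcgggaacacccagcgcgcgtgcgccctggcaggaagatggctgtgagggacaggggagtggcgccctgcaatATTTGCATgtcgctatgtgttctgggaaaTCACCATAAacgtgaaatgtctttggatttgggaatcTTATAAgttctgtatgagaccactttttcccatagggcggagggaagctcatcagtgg

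The octamer lies on the opposite strand in both and so reads ATTTGCAT here, and in RPPH1 the match to TATAA overlaps 1 on the other strand. Counted upstream from the RefSeq start, TATAA began 31 bases, TCACCNTNA 65 bases and the octamer 215 bases before RMRP. Before RPPH1 these were 30, 68 and 97 bases. Of 35116 RefSeq promoter windows, 1.77% held the octamer, 2.69% TCACCNTNA and 20.4% TATAA on either strand. All of them were held by 8 windows, among them those of CCDC107 and PARP2. Matches were counted over whole windows, while only the stretch before the start of the neighbour is shown. These are matches of letters, not sites of binding.

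The neighbours were far less abundant than the RNAs. PARP2, which attaches poly(ADP-ribose) after DNA damage, stood at 13.4 FPKM with doxycycline and 10.9 FPKM without it in shEXOSC3 on day 7, and at 12.5 and 10.95 FPKM in shNS. Its adjusted difference was 0.10 on day 7 and 0.33 on day 5. CCDC107 stood at 1.16 FPKM with doxycycline and 2.24 FPKM without it in shEXOSC3 on day 7, and at 1.79 and 1.04 FPKM in shNS. Its adjusted difference of -1.04 on day 7 passed 2-fold at levels near the minimum of 1 FPKM, and on day 5 it was -0.59.

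Among the protein subunits, 0 of 8 reached a 2-fold adjusted difference on either day, beside 3.96% of all genes on day 7 and 2.43% on day 5, so the count is near that background. RPP40 came nearest. On day 5 all 8 adjusted differences lay below 0, as they did for 50.1% of all genes, with a median of -0.34 against -0.00 over all genes. When libraries were rescaled without the 10 most abundant transcripts, 6 of the 8 lay below 0 on day 5, POP5 at 0.06 and POP7 at 0.01 being the exceptions, while the median of all genes stood at 0.11. The day 5 median of the subunits was -0.20 with that rescaling and -0.17 when doxycycline libraries were compared across tables. On day 7, 5 of the 8 lay below 0, against 51.4% of all genes, with a median of -0.16 against -0.01. These 5, POP4, POP5, RPP25, RPP30 and RPP40, lay below 0 on both days, as did 28.9% of all genes. With the highest transcript of each gene alone, 3 of the 8 lay below 0 on day 7 and the median was 0.0933, with POP4 at 0.18 and RPP40 at 0.15. That RPP40 value is set by the untreated libraries alone, because the transcript used was listed at 0 FPKM with doxycycline in both lines. On day 5 the median doxycycline ratio was -0.21 in shEXOSC3 and 0.20 in shNS, so about as much of the adjusted value came from shNS, where 7 of the 8 were higher with doxycycline. On day 7 these medians were -0.08 in shEXOSC3 and 0.01 in shNS. The authors' deposited tables marked no transcript of any gene as significant (0 in all 4), and the lowest p among the members' transcripts was 0.0705, for POP1 in shNS on day 5.

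**Figure D3:**
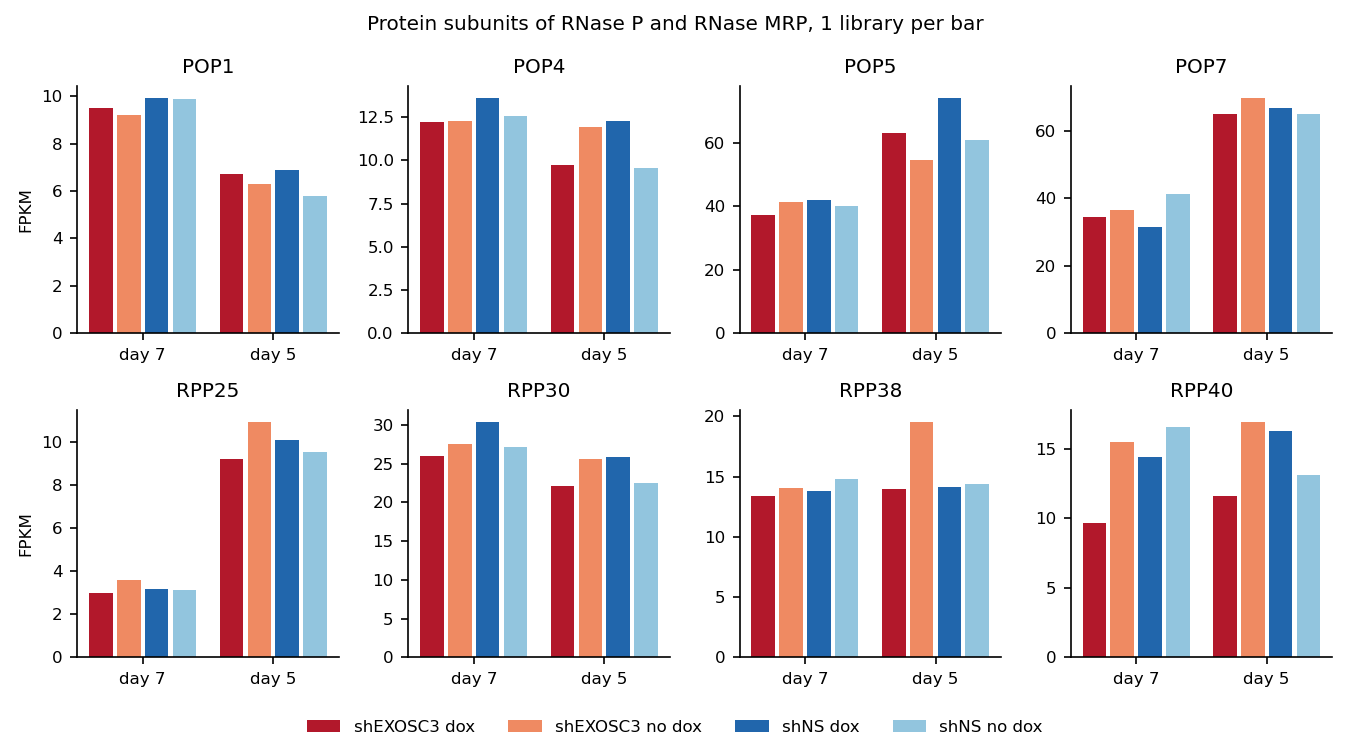
FPKM of the 8 protein subunits in each library, day 7 at the left and day 5 at the right of each panel, with shEXOSC3 in red and shNS in blue, doxycycline dark and untreated pale. RPP25, POP5 and POP7 stand lower on day 7 than on day 5 in all 4 conditions, and POP1, POP4 and RPP30 stand higher.

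POP1, the largest protein of both enzymes (hg19, chr8:99129521-99172069), had 9.51 FPKM with doxycycline and 9.21 FPKM without it in shEXOSC3 on day 7, and 9.93 and 9.87 FPKM in shNS. On day 5 it had 6.71 and 6.29 FPKM in shEXOSC3, and 6.90 and 5.81 FPKM in shNS. The doxycycline library was slightly higher in every table, and the adjusted differences were 0.03 on day 7 and -0.13 on day 5. Its transcript NM_001145860 carried nearly all of the sum on day 7, while NM_015029 held 1.78 to 4.77 FPKM on day 5 and under 0.001 FPKM on day 7.

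POP7 and RPP25 form a dimer that binds a helical domain of both RNAs. POP7 (hg19, chr7:100303676-100305123) had 34.6 FPKM with doxycycline and 36.7 FPKM without it in shEXOSC3 on day 7, and 31.4 and 41.4 FPKM in shNS. The day 5 values of POP7 were 65.1 and 69.8 FPKM in shEXOSC3, and 66.9 and 65.0 FPKM in shNS. Its adjusted difference of 0.30 on day 7 came mostly from the shNS pair, and on day 5 it was -0.14. RPP25 (hg19, chr15:75247443-75249775) had 2.98 FPKM with doxycycline and 3.61 FPKM without it in shEXOSC3 on day 7, and 3.16 and 3.15 FPKM in shNS. RPP25 on day 5 had 9.24 and 10.955 FPKM in shEXOSC3, and 10.1 and 9.57 FPKM in shNS. Its adjusted differences, -0.22 on day 7 and -0.30 on day 5, were nearly alike, and day 7 levels were 3.03-fold to 3.20-fold below those of day 5.

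POP5 and RPP30 are partners within the protein core. POP5 (hg19, chr12:121016848-121019201) was among the 2 most abundant subunits in every library, with 37.2 FPKM with doxycycline and 41.3 FPKM without it in shEXOSC3 on day 7, and 42.0 and 40.2 FPKM in shNS. POP5 on day 5 had 63.1 and 54.7 FPKM in shEXOSC3, and 74.2 and 60.8 FPKM in shNS, higher with doxycycline in both lines. The adjusted differences of POP5 were -0.21 on day 7 and -0.08 on day 5. RPP30 (hg19, chr10:92631709-92668312) had 26.0 FPKM with doxycycline and 27.5 FPKM without it in shEXOSC3 on day 7, and 30.4 and 27.1 FPKM in shNS. RPP30 on day 5 had 22.2 and 25.6 FPKM in shEXOSC3, and 25.8 and 22.6 FPKM in shNS. Doxycycline libraries of RPP30 were lower in shEXOSC3 and higher in shNS on both days, a pattern shared with RPP25, POP4 and 4.99% of all genes. Its adjusted differences were -0.24 on day 7 and -0.39 on day 5.

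POP4, also known as RPP29 (hg19, chr19:30097170-30108162), had 12.2 FPKM with doxycycline and 12.3 FPKM without it in shEXOSC3 on day 7, and 13.6 and 12.6 FPKM in shNS. POP4 on day 5 had 9.72 and 11.9 FPKM in shEXOSC3, and 12.3 and 9.58 FPKM in shNS. Its adjusted difference was -0.11 on day 7 and -0.59 on day 5, where 2.61% of all genes lay lower. RPP38, a member of the L7Ae family of RNA-binding proteins (hg19, chr10:15137384-15146256), had 13.4 FPKM with doxycycline and 14.1 FPKM without it in shEXOSC3 on day 7, and 13.8 and 14.8 FPKM in shNS. RPP38 on day 5 had 14.01 and 19.5 FPKM in shEXOSC3, and 14.1 and 14.4 FPKM in shNS. The untreated shEXOSC3 library of day 5 was thus the high one of the 8, and the adjusted difference was 0.03 on day 7 and -0.43 on day 5.

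RPP40, a protein subunit of both enzymes, had the lowest adjusted difference of the 10 genes on both days. It had 9.67 FPKM with doxycycline and 15.5 FPKM without it in shEXOSC3 on day 7, and 14.4 and 16.5 FPKM in shNS. RPP40 on day 5 had 11.6 and 16.9 FPKM in shEXOSC3, and 16.3 and 13.1 FPKM in shNS. The shEXOSC3 doxycycline libraries were the lowest of the 4 on each day, at 62.4% of the untreated level on day 7 and 68.4% on day 5. In shNS the doxycycline level was 86.9% of the untreated level on day 7 and 124% on day 5. The adjusted differences of RPP40 were -0.44 on day 7 and -0.81 on day 5, where 6.62% and 1.25% of all genes lay lower, and both miss 2-fold.

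**Figure D4:**
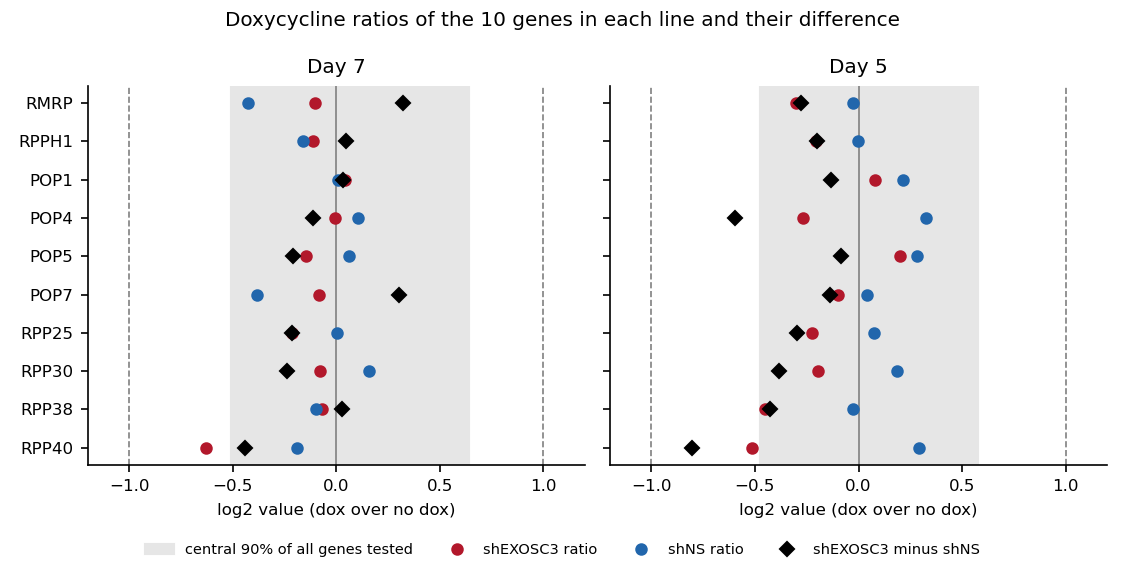
Log2 ratio of doxycycline over untreated in shEXOSC3 (red) and shNS (blue) and their difference (black) for the 10 genes, on days 7 and 5; grey marks the central 90% of the adjusted difference over all 13116 genes and dashed lines mark 2-fold. No member passes a dashed line, and RPP40 has the lowest difference on both days.

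Of the 3 RPP40 transcripts, NM_001286133 was lower with doxycycline in shEXOSC3 on both days. It was listed at 2.62 FPKM with doxycycline and 9.20 FPKM without it in shEXOSC3 on day 7, and at 7.91 and 9.41 FPKM in shNS. On day 5 it was listed at 1.09 and 7.02 FPKM in shEXOSC3, and at 4.80 and 2.71 FPKM in shNS. NM_006638 was listed at 0 FPKM with doxycycline on day 7 in both lines, against 6.30 FPKM untreated in shEXOSC3 and 7.12 FPKM untreated in shNS. In the same libraries NM_001286132 was listed at 7.05 FPKM with doxycycline in shEXOSC3 and 6.45 FPKM with doxycycline in shNS, against 0 FPKM in both untreated libraries. On day 7, then, NM_006638 was lower and NM_001286132 higher with doxycycline in both lines. On day 5 NM_006638 lay between 9.91 and 10.6 FPKM in all 4 libraries. The tables list RPP40 under a locus of 265904 bases (hg19, chr6:4995280-5261183) that also holds LYRM4, LYRM4-AS1, PPP1R3G and MIR3691. With only the transcript of the highest mean, NM_006638, the adjusted difference of RPP40 was 0.15 on day 7 and 0.05 on day 5. The day 7 value is set by the untreated levels alone, since both doxycycline libraries were at 0 FPKM. It therefore cannot show a direction for RPP40 with doxycycline. On day 5 the direction rests on the sum. How reads were divided among overlapping transcripts bears on these values and was not tested.

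**Figure D5:**
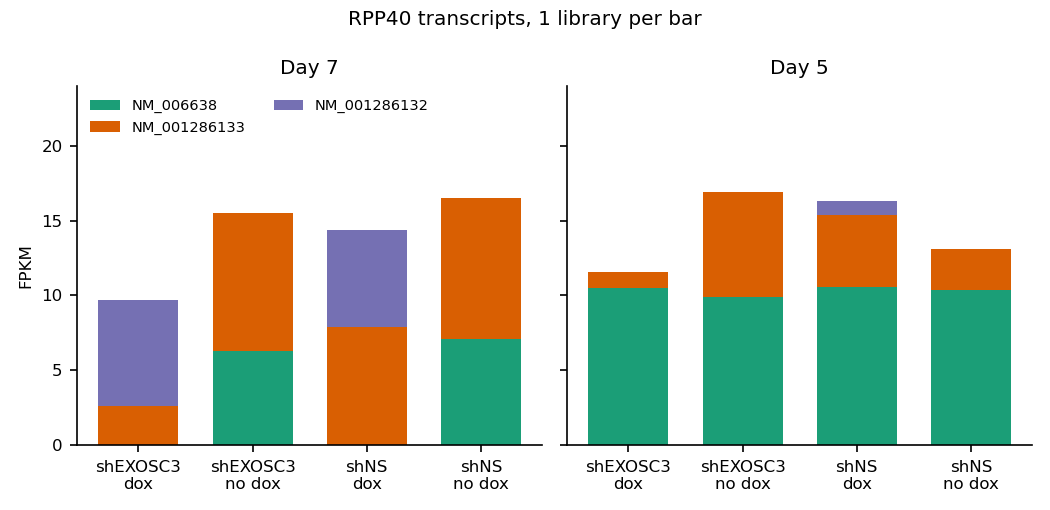
FPKM of the 3 RPP40 transcripts stacked in each library, day 7 on the left and day 5 on the right. NM_001286133 is at 2.62 and 1.09 FPKM in the shEXOSC3 doxycycline libraries of days 7 and 5, against 9.20 and 7.02 FPKM in the untreated ones.

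Among 41 measured genes of 6 lists that work beside these enzymes, 1 passed 2-fold by the adjusted difference on day 7 (2.44%) and 0 on day 5, near the shares of 3.96% and 2.43% over all genes. RPP14 and RPP21 are further RNase P proteins and RPP25L a paralog of RPP25, and 1 of these 3 passed, on day 7. RPP14 stood at 15.0 FPKM with doxycycline and 10.2 FPKM without it in shEXOSC3 on day 7, and at 6.78 and 13.0 FPKM in shNS, an adjusted difference of 1.36. The larger part came from shNS, and on day 5 the difference was -0.03. RPP25L had 0.68 and RPP21 0.47 on day 7, and -0.27 and -0.35 on day 5. The mitochondrial RNase P, made of proteins without an RNA, had 0 of 3 past 2-fold: TRMT10C had -0.13 on day 7 and -0.25 on day 5, HSD17B10 0.07 and -0.04, and PRORP 0.01 and -0.37.

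Factors of tRNA 3′ ends (4 measured), of tRNA splicing (10) and RNA polymerase III with its repressor MAF1 (12) also had 0 members past 2-fold on either day. The La protein SSB, which binds the 3′ ends of new polymerase III transcripts, had 200.2 FPKM with doxycycline and 317 FPKM without it in shEXOSC3 on day 7, and 289.7 and 329.7 FPKM in shNS. Its adjusted difference was -0.47 on day 7 and -0.31 on day 5. In tRNA splicing the values lay between -0.58 and 0.44 on day 7 and between -0.74 and 0.06 on day 5. Of 9 measured factors of promoters like those of RMRP and RPPH1, 0 passed 2-fold. SNAPC1 had -0.64 on day 7 and -0.31 on day 5, against 0.31 and -0.21 for SNAPC3. The polymerase III subunits lay between -0.29 and 0.29 on day 7 and between -0.53 and 0.28 on day 5, where POLR3G was the lowest.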

How the data were processed

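Total RNA depleted of ribosomal RNA was sequenced from ScriptSeq v2 libraries, per the labels' protocols. The labels' protocols mention spike-in RNA, of which 0 entries are in the tables. Per the submitters' processing notes the authors used CASAVA 1.8, TopHat and Cufflinks on hg19; further versions, the annotation release and the strand setting were not given in the sources used. The deposited values are FPKM per RefSeq transcript in the Cuffdiff layout, per the file headers, with 49235 transcripts in each of 4 tables. The p-value and q-value deposited by the authors compare 1 library with 1 library.

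Accessions were matched to symbols through a RefSeq table of GRCh38.p14, used for names, and 48147 transcripts (97.8%) matched. FPKM were summed per gene; the 55 genes with a failed or too deep estimate and genes with a mean below 1 FPKM were left out, which left 13116. Ratios are log2 of FPKM plus a pseudocount of 1, formed within a table, so differences of low genes come out too small. A gene was called by size alone, at 2-fold. Computation used Python 3.11.15 with pandas 2.3.3 and was tested on simulated data. FPKM of short transcripts depend on the fragment length assumed. The members and lists were chosen with earlier results of these data known. Named genes were the 10 members, EXOSC3, up to 2 genes at each end of each list (all genes of short lists) and 3 genes with the pattern most like each RNA. Alternatives were the pseudocount, scaling, minimum, transcript choice, fold and a comparison across tables.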

Additional observations from a re-analysis of the deposited data

Results flagged for a closer look

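For 3 of the 10 genes the doxycycline ratio lay below 0 in shEXOSC3 and above 0 in shNS on both days, as it did for 4.99% of all genes. The difference between the lines was not tested, since each ratio rests on 1 library against 1. The log2 ratio of RPP30 was -0.0776 in shEXOSC3 and 0.16 in shNS on day 7, and -0.20 in shEXOSC3 and 0.19 in shNS on day 5. For RPP25 it was -0.21 in shEXOSC3 and 0.0028 in shNS on day 7, and -0.22 in shEXOSC3 and 0.0747 in shNS on day 5. For POP4 it was -0.0041 in shEXOSC3 and 0.11 in shNS on day 7, and -0.27 in shEXOSC3 and 0.32 in shNS on day 5. RPP40, the member with the lowest adjusted differences, is not among them, because its shNS ratio was -0.19 on day 7 and 0.29 on day 5.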

How the results depend on the processing

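No member passed 2-fold under any of the alternatives that kept the 2-fold rule. With a 1.5-fold rule, 2 protein subunits passed on day 5, RPP40 and POP4, beside 636 genes higher and 358 lower among the 13116 compared. On day 7, 0 subunits passed, beside 762 genes higher and 485 lower. The adjusted difference of RPPH1 on day 7 was -0.0094 when libraries were rescaled without the 10 most abundant transcripts, beside -0.0566 for the median of all genes. RPPH1 was at -0.12 on day 7 when doxycycline libraries were compared across tables. The median of the protein subunits on day 7 was 0.0933 with the highest transcript of each gene alone. The RPP40 transcript used there was listed at 0 FPKM with doxycycline in both lines. Over all genes, the counts higher on day 7 were 289 by the adjusted difference, 489 with a pseudocount of 0.1, 186 with 5, 697 with the highest transcript and 762 at 1.5-fold. Lower on day 7 were 230 genes, against 726 with the highest transcript, 146 across tables and 485 at 1.5-fold. Higher on day 5 were 198 genes, against 362 with a pseudocount of 0.1, 475 with the highest transcript, 99 across tables and 636 at 1.5-fold. Lower on day 5 were 121 genes, against 395 with the highest transcript, 159 across tables and 358 at 1.5-fold. The cause of these shifts was not tested. The log2 ratios of RMRP to RPPH1 kept their values under each pseudocount, which had to be so because both RNAs stood far above the pseudocounts. The fragment length assumed was not varied. No paired analysis was possible because the labels give no replicate numbers and each group has 1 library. Read depth is unknown, and 1 library per group leaves the spread between cultures unmeasured.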

Other observations

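Among 15 other RNA polymerase III transcripts listed, 9 had an entry, 6 of these were listed at 0 in all libraries, and 3 passed the minimum mean of 1 FPKM. The vault RNA VTRNA1-3 was listed at 3671 FPKM with doxycycline and 1447 FPKM without it in shEXOSC3 on day 7, and at 1510 and 1840 FPKM in shNS, an adjusted difference of 1.63. VTRNA2-1 was listed at 17.5 FPKM with doxycycline and 48.5 FPKM without it in shEXOSC3 on day 7, and at 34.3 and 45.7 FPKM in shNS, a difference of -1.01. Both were listed at 0 in all day 5 libraries. RNU6ATAC, the minor spliceosome U6 RNA, had an adjusted difference of 0.43 on day 7 and 0.39 on day 5. On day 7 it was listed at 83.5 FPKM with doxycycline and 61.6 FPKM without it in shEXOSC3, and at the same 65.4 FPKM in both shNS libraries. On day 5 the lines stood apart, with 82.1 and 73.5 FPKM in shEXOSC3 and 181 and 212 FPKM in shNS.

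MALAT1, a nuclear noncoding RNA whose 3′ end is cut by RNase P, stood at 158 FPKM with doxycycline and 205 FPKM without it in shEXOSC3 on day 7, and at 211 and 148 FPKM in shNS. On day 5 it stood at 107 and 87.7 FPKM in shEXOSC3, and at 74.0 and 134 FPKM in shNS. Its adjusted difference was -0.89 on day 7 and 1.12 on day 5, so its sign turned. The day 5 value passed 2-fold, as did 2.43% of all genes. The larger part of both values came from shNS. The log2 doxycycline ratio of MALAT1 was 0.51 in shNS and -0.38 in shEXOSC3 on day 7, and -0.84 and 0.28 on day 5. NEAT1, cut in the same way, had 0.42 on day 7 and 0.59 on day 5. Its day 5 levels lay between 0.505 and 1.11 FPKM, near the minimum of 1 FPKM. RSAD2 had a mean below 1 FPKM.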
